A study of Mus musculus with 18 samples.

Results

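Livers of 8 Young mice, of 18 mice in the series, were compared by their pyruvate dehydrogenase (PDH) flux, a rate that the labels give for each liver. Mice with a labelled flux over 0.5 formed the high-flux group (mice 2, 3, 10 and 11) and mice under 0.4 the low-flux group (mice 1, 4, 12 and 13), so that all 8 Young mice had a group. All were male C57BL/6J mice aged 6.18 months, with no gene altered. All were fasted overnight, infused with insulin, labelled glucose, lactate and palmitate during a hyperinsulinemic-euglycemic clamp, and killed at its end, and the frozen liver was used for RNA. No Young liver without insulin infusion was therefore compared. RNA was extracted with the AllPrep kit from mouse 10 of the high group and mice 1 and 13 of the low group, and with the RNeasy kit from the other 3 and 2 livers, and ribosomal RNA was depleted before sequencing. The 10 Old mice, aged 19.76 months and treated alike, were used to ask whether a gene followed the same flux there. They also entered an alternative fit of the Young groups, in which the spread was taken from all 18 libraries.

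PDH is the mitochondrial enzyme complex that turns pyruvate into acetyl-CoA and so commits carbon from glucose and lactate to the citric acid cycle. The complex is switched off when PDH kinases phosphorylate it and switched on when PDH phosphatases remove the phosphate, and insulin is known to favour the active form. In liver, pyruvate can instead be carboxylated to oxaloacetate for glucose production, and most acetyl-CoA in the fasted state comes from fatty acids. A transcript level does not report the phosphorylation of the complex.

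The groups differed about 2-fold in PDH flux while the flux through the cycle was alike in size. In the high group the labelled PDH flux was 0.657 in mouse 2, 0.582 in mouse 3, 0.802 in mouse 10 and 0.64 in mouse 11. In the low group it was 0.295 in mouse 1, 0.397 in mouse 4, 0.305 in mouse 12 and 0.326 in mouse 13. These are the values that made the groups, in a unit that the labels do not give. The mice nearest the gap were mouse 4, just below it at 0.397, and mouse 3, just above it at 0.582. The means were 0.670 ± 0.0935 and 0.331 ± 0.0460 (SD, n = 4 each), a ratio of 2.03. The share of citrate carbon that came from pyruvate was 18.35%, 14.41%, 22.6% and 17.35% in high-flux mice 2, 3, 10 and 11. It was 8.64%, 12.08%, 7.16% and 9.21% in low-flux mice 1, 4, 12 and 13. This share is the PDH flux divided by the citrate synthase flux, to within 0.01 percentage points, and the labelled fatty acid oxidation is the citrate synthase flux minus the PDH flux, so neither was tested.

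Citrate synthase, the first enzyme of the citric acid cycle, carried a flux of 3.71 ± 0.225 in high-flux and 3.63 ± 0.434 in low-flux mice (SD, n = 4 each), and the values overlapped. A two-sided exact permutation test gave p = 0.657 for the gap between the means. The labelled fatty acid oxidation was 3.04 ± 0.303 and 3.29 ± 0.459 (SD, n = 4 each). None of 18 other traits of the mice passed a two-sided exact permutation test once p was adjusted over all 18, and the smallest adjusted p was 0.908. With 4 against 4 mice, the smallest p that the 70 regroupings allow is 0.0286, and with the 3 low-flux mice that had cage and body composition values it is 0.0571.

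Glucose production during the clamp, which insulin normally shuts down, had the smallest unadjusted p of the traits. It was 3.36, 4.42, 2.51 and 3.92 in high-flux mice 2, 3, 10 and 11 and 1.54, 3.76, 1.26 and 2.54 in low-flux mice 1, 4, 12 and 13. The 2 groups overlapped, since low-flux mouse 4 lay above high-flux mice 2 and 10, and low-flux mouse 13 just above mouse 10. The exact permutation test gave 0.143 (0.908 after adjustment). Insulin suppressed glucose production by 76.7% ± 6.27 in high-flux and 84.8% ± 7.52 in low-flux mice (SD, n = 4 each, exact permutation p = 0.200). The glucose infusion rate was 41.6 ± 4.27 and 37.8 ± 1.59 in label units (SD, n = 4 each, exact permutation p = 0.171). Liver glycogen was 38.4 ± 11.4 and 40.5 ± 9.16 in label units (exact permutation p = 0.771), and body weight at the clamp was 28.9 ± 2.12 g and 31.5 ± 3.53 g (exact permutation p = 0.314). Insulin during the clamp was 51.8 ± 7.77 and 55.9 ± 6.27 in label units (exact permutation p = 0.457).

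**Figure D1:**
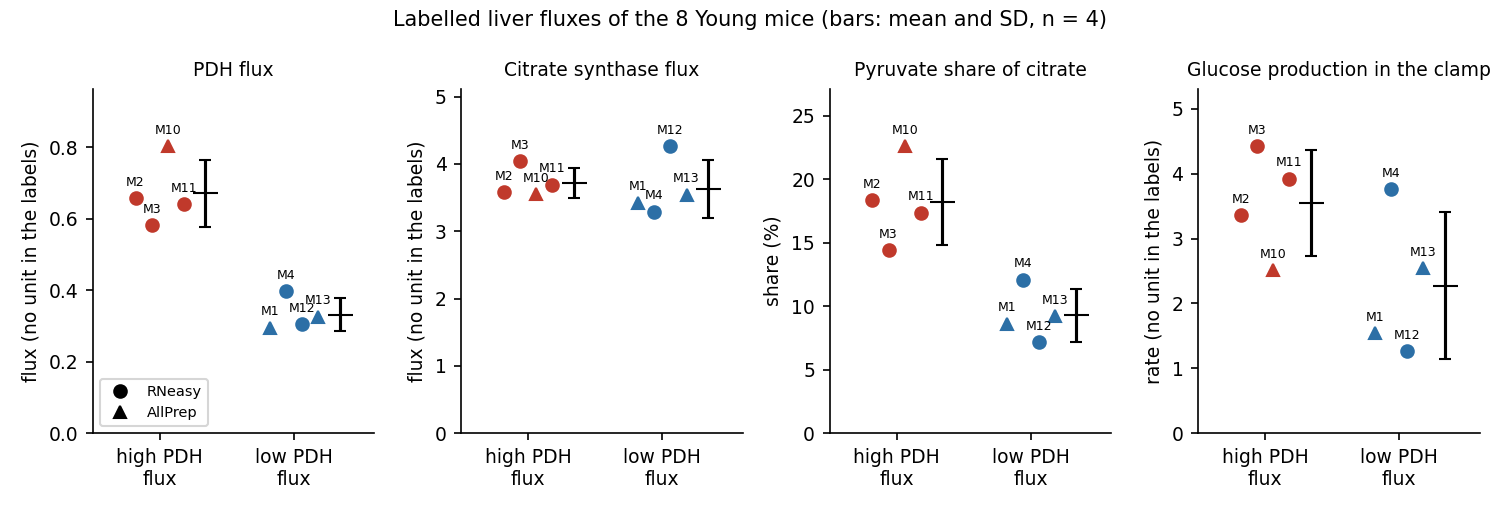
Labelled PDH flux, citrate synthase flux, share of citrate from pyruvate (%) and glucose production during the clamp in each of the 8 Young mice, with the group mean and SD (n = 4); triangles mark livers extracted with AllPrep and circles those extracted with RNeasy. PDH flux, which made the groups, and the pyruvate share, which is computed from it, do not overlap, whereas citrate synthase flux and glucose production overlap.

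Recovered reads numbered 96457108 to 105749290 in the high-flux libraries. Those of low-flux mice 1, 4 and 12 lay above all of these, at up to 127487820, and that of mouse 13 below them, at 85790735. Levels below are scaled TPM, reads per gene length scaled to the same library composition, so that they can be compared between genes. The liver identity of the tissue was plain, with the 17 listed hepatocyte markers summing to 117900 to 174200 scaled TPM in high-flux and 133200 to 180200 in low-flux livers. The extraction kit left a larger mark than the flux group: in the same fit 666 genes differed between kits, 245 of them higher and 421 lower with AllPrep. The labels give each mouse as its own animal.

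No gene passed the test between high-flux and low-flux livers. Of 13748 genes tested with limma on log2(scaled TPM + 0.5), with kit as a term, 0 had a Benjamini-Hochberg adjusted p under 0.05, which is 0% of the genes, and the smallest adjusted p was 1. Differences were negative for 54.3% of the tested genes. At an unadjusted p under 0.05, 96 genes were higher in high-flux livers (0.698%) and 176 were lower (1.28%). All 4 values lay above those of the other group for 34 genes (0.247%) and below for 103 genes (0.749%). With 4 against 4 livers, 1 of 70 regroupings sets all 4 values of a gene above the others, and both shares were smaller than that. Both directions together, the genes at an unadjusted p under 0.05 were also fewer than the share of 0.05 expected where no gene differs. limma-voom on the recovered reads also called 0 genes and had 240 at an unadjusted p under 0.05. For a gene of median precision the 95% interval before adjustment reached 0.28 on the log2 scale to each side, or 1.22-fold. A call over all genes needs more than that. Bcl6, at 2.33-fold, was not called either, but its SE of 0.388 was larger than the median SE of 0.123. The numbers at an unadjusted p under 0.05 moved with the fit. They were 820 higher and 834 lower with kit and clamp weight as terms, 600 and 939 with library weights, 176 and 163 in RNeasy livers alone, and 52 and 57 with the spread taken from all 18 libraries. Without the composition factor they were 130 and 116, and with median-of-ratios scaling 121 and 141. They moved with single livers too, to 257 higher and 378 lower without mouse 1, 254 and 317 without mouse 12, 155 and 185 without mouse 11, and 103 and 75 without mouse 10, with 0 called each time. With library weights 1 gene was called, the predicted gene Gm40934 (adjusted limma p = 0.0454), which was named after its values had been seen.

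**Figure D2:**
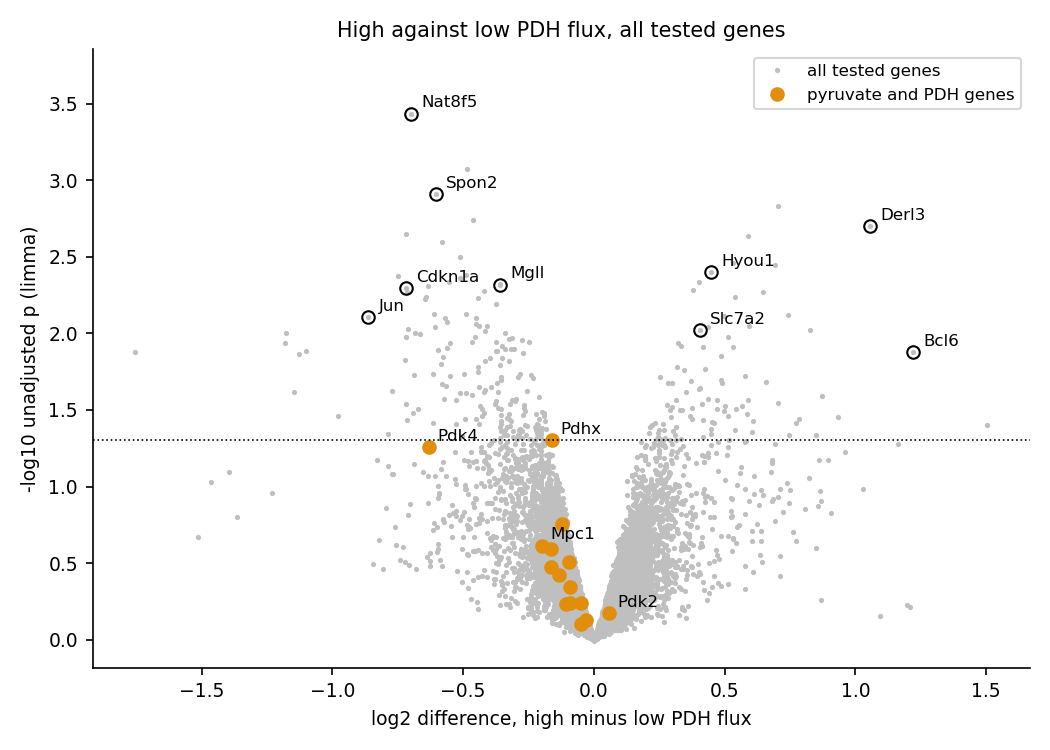
Log2 difference between high-flux and low-flux livers (horizontal, log2 units) against −log10 of the unadjusted limma p (vertical) for the 13748 tested genes, with pyruvate and PDH genes in orange and other named genes circled; the dotted line marks an unadjusted p of 0.05. Pdhx lies at the line and Pdk4 just under it, and no gene passed after adjustment.

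For the 5 transcripts of the PDH complex itself all 5 differences between high-flux and low-flux livers were negative, from −0.16 to −0.05 (log2), with a median of −0.09 against −0.01 for all tested genes. Pdha1 encodes the catalytic alpha subunit that the kinases phosphorylate. Its level was 82.2, 89.4, 87.1 and 84.0 scaled TPM in high-flux mice 2, 3, 10 and 11 and 93.2, 93.2, 76.5 and 120 in low-flux mice 1, 4, 12 and 13. The low-flux livers spanned the whole range of the high-flux livers. The log2 difference was −0.09 ± 0.12 (SE), with a 95% interval from −0.36 to 0.18 and an adjusted limma p of 1. A 2-fold difference of Pdha1 in either direction lies outside that interval. In RNeasy livers alone the difference was 0.01.

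Pdhb, the beta subunit of the same enzyme, stood at 105, 108, 109 and 108 scaled TPM in high-flux mice 2, 3, 10 and 11 and at 139, 113, 108 and 122 in low-flux mice 1, 4, 12 and 13. The high-flux livers were within 5 units of each other, and low-flux mouse 12 fell among them. The log2 difference was −0.12 (95% interval −0.31 to 0.07, limma adjusted p = 1). Dlat, the acetyltransferase core, had a difference of −0.09 (−0.29 to 0.10), and Dld, the lipoamide dehydrogenase shared with other keto acid dehydrogenases, had −0.05 (−0.24 to 0.14).

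Pdhx, the protein that anchors Dld to the core, was the only one of the 5 at an unadjusted p under 0.05 (1.28% of all genes in that direction). Its level was 21.4, 22.9, 24.2 and 20.8 scaled TPM in high-flux mice 2, 3, 10 and 11 and 27.9, 24.3, 23.9 and 27.4 in low-flux mice 1, 4, 12 and 13. Mouse 10 of the high group lay above mouse 12 of the low group, so the groups overlapped. The log2 difference was −0.16 ± 0.07 (SE), with a limma p of 0.0498 unadjusted and 1 adjusted. The mean was lower where the flux was higher, at 22.4 ± 1.52 against 25.9 ± 2.07 scaled TPM (SD, n = 4 each).

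Among the kinases and phosphatases that set the activity of the complex, Pdk4 had the largest difference. Pdk4 is the PDH kinase that fasting and PPAR-alpha are known to induce and insulin to repress. It was measured at 17.6, 17.1, 10.9 and 25.4 scaled TPM in high-flux mice 2, 3, 10 and 11. In low-flux mice 1, 4, 12 and 13 it stood at 32.6, 33.9, 17.7 and 20.8. Mice 1 and 4 were above every high-flux liver, whereas mice 12 and 13 lay inside the high-flux range. The log2 difference was −0.63 ± 0.28 (SE, 95% interval −1.28 to 0.02), or 0.645-fold, with an unadjusted limma p of 0.0555 and an adjusted p of 1. Within AllPrep the means were 10.9 (1 liver) and 26.7 (2 livers), and within RNeasy 20.0 (3 livers) and 25.8 (2 livers), so that the RNeasy gap was smaller. Leaving out each liver in turn gave −0.95 to −0.31.

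Pdk2, the most abundant PDH kinase transcript in these livers, was the only gene of pyruvate entry or PDH control with a positive difference. It was measured at 67.6, 79.8, 83.3 and 56.3 scaled TPM in high-flux mice 2, 3, 10 and 11 and 67.9, 70.3, 62.4 and 85.8 in low-flux mice 1, 4, 12 and 13. The groups overlapped almost wholly, with means of 71.7 ± 12.3 and 71.6 ± 10.0 (SD, n = 4 each). The log2 difference was 0.06 (95% interval −0.24 to 0.36), and without the kit term it was −0.00387. Pdk1, a kinase that hypoxia induces, had −0.16 (−0.53 to 0.21). Pdk3 was near the limit of detection, at 0.113 to 0.199 scaled TPM in high-flux and 0.183 to 0.238 in low-flux livers, and was not tested.

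The phosphatase transcripts overlapped between the groups. Pdp2, the main phosphatase transcript here, was at 28.3 ± 5.33 and 31.8 ± 3.92 scaled TPM in high-flux and low-flux livers (SD, n = 4 each), with a log2 difference of −0.13 (95% interval −0.47 to 0.20). Pdp1, which calcium activates in other tissues, was low at 0.588 to 0.791 and 0.563 to 0.938 scaled TPM and differed by −0.16 (−0.47 to 0.14). Pdpr, the regulatory subunit that restrains the phosphatase, differed by −0.03 (−0.24 to 0.18), and its sign turned with the spread taken from all 18 libraries (0.02), with flux as a number (0.00641 for the difference between the group means) and with body weight as a term (0.03).

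Pyruvate enters mitochondria through the carrier formed by Mpc1 and Mpc2. Mpc1 was at 63.2, 68.7, 54.5 and 64.6 scaled TPM in high-flux mice 2, 3, 10 and 11 and at 97.1, 70.3, 62.1 and 63.8 in low-flux mice 1, 4, 12 and 13. Mouse 1 stood above the other 7 livers, which overlapped. The log2 difference was −0.20 (95% interval −0.56 to 0.16). Mpc2 showed the same mouse apart, at 468 scaled TPM in mouse 1 against 256 to 301 in the other 7, and differed by −0.11 (−0.54 to 0.32), with 0.09 in RNeasy livers alone. Pcx, pyruvate carboxylase, which takes pyruvate towards glucose, was at 377 ± 66.6 and 405 ± 86.7 scaled TPM (SD, n = 4 each) and differed by −0.05 (−0.46 to 0.36). Ldha, which interconverts pyruvate and lactate, differed by −0.09 (−0.45 to 0.27). Of these 15 tested genes of pyruvate entry, carboxylation, lactate exchange and PDH control, 14 had a negative difference, against 54.3% of all tested genes. A negative difference at an unadjusted p under 0.05 was found for 1, against 1.28% of all genes, and 0 had groups that did not overlap, against 0.247% higher and 0.749% lower.

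**Figure D3:**
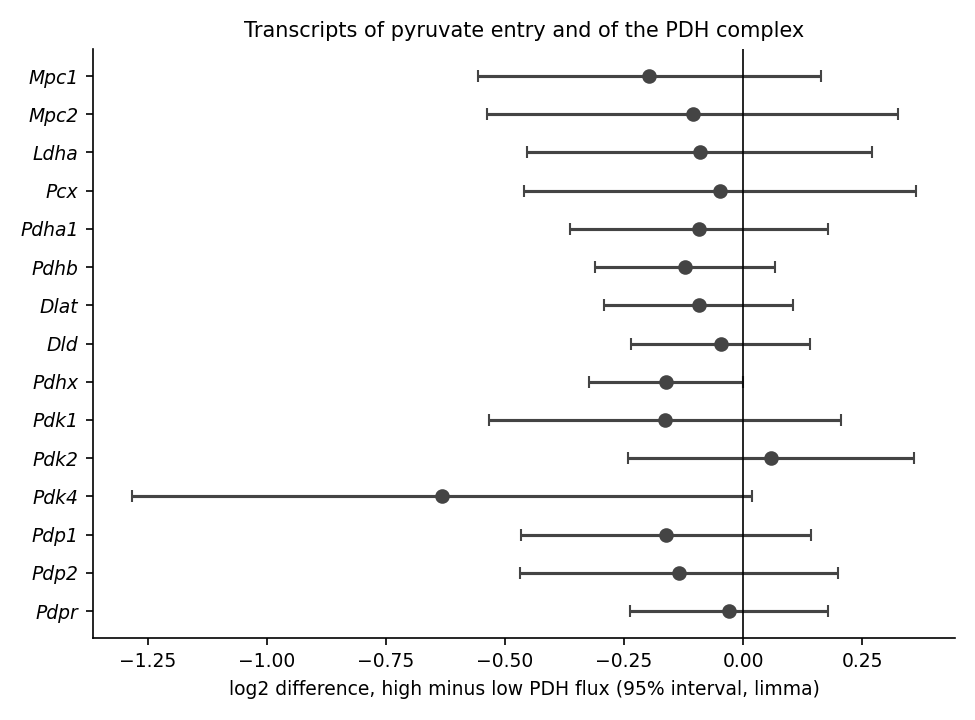
Log2 difference between high-flux and low-flux livers with its 95% interval (limma, 4 against 4, kit as a term) for the pyruvate carrier, lactate dehydrogenase A, pyruvate carboxylase, the PDH complex, its kinases and its phosphatases. Every interval but that of Pdhx covers 0, and the widest belongs to Pdk4 (−1.28 to 0.02).

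Downstream of PDH most differences were small and negative, and no single gene passed the test. Over all tested genes 54.3% were negative. The lean was not particular to these genes. Of 40 cytosolic ribosomal protein genes 38 were negative, and of 15 genes of branched-chain keto acid breakdown 13 were. Of 20 urea cycle and amino acid breakdown genes 8 were. Of 20 citric acid cycle genes, 18 had a negative difference, with a median of −0.07 and 0 at an unadjusted p under 0.05. All 37 nuclear-encoded respiratory chain genes had a negative difference, from −0.20 to −0.04, with a median of −0.10 and 0 at an unadjusted p under 0.05. Their summed level was 9267, 9596, 10300 and 8683 scaled TPM in high-flux mice 2, 3, 10 and 11 and 13800, 9443, 8762 and 11550 in low-flux mice 1, 4, 12 and 13. The 2 AllPrep livers of the low group were the highest, and the 2 RNeasy livers of that group lay within the high-flux range. In RNeasy livers alone the median difference was −0.0029 and without mouse 10 it was −0.0038. With kit and clamp weight as terms it was −0.18, and 12 of the 37 had a negative difference at an unadjusted limma p under 0.05. In that fit 834 of all 13748 genes did.

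The alternative source of acetyl-CoA, fatty acid oxidation, showed a like pattern. Of 25 genes of fatty acid oxidation and ketogenesis, 24 had a negative difference, against 54.3% of all tested genes, with a median of −0.13. Eci1, an enoyl-CoA isomerase needed for unsaturated fatty acids, was the 1 member at an unadjusted p under 0.05 (1.28% of all genes in that direction). That number was 11 with kit and clamp weight as terms, 6 with flux as a number, 3 with library weights and 0 without the kit term. In the same fits 834, 244, 939 and 148 of all 13748 genes were lower at that p. Eci1 was measured at 271, 281, 264 and 256 scaled TPM in high-flux mice 2, 3, 10 and 11 and 358, 285, 297 and 340 in low-flux mice 1, 4, 12 and 13. The 2 groups did not overlap (0.749% of all genes in that direction), but mouse 4 was only 4 units above mouse 3. Eci1 differed by −0.21 ± 0.09 (SE, unadjusted limma p = 0.0432, adjusted p = 1). Of 23 targets of PPAR-alpha, the nuclear receptor that turns on fatty acid oxidation in fasting, 19 had a negative difference, with a median of −0.23 and 0 at an unadjusted p under 0.05. Mouse 1 was the highest in the median of that list, at 0.49 above the mean of the 8 livers, and in RNeasy livers alone the median difference was −0.09. With 1 liver left out at a time, the members at an unadjusted limma p under 0.05 were 4 lower and 1 higher without mouse 12. They were 3 lower without mouse 11, 1 higher without mouse 1 and 0 without mouse 10 or mouse 13. Of all 13748 genes, 317 were lower and 254 higher at that p without mouse 12. Without mouse 11, 185 were lower, and without mouse 1, 257 were higher. Leaving out mouse 2, 3 or 4 moved the number of members too. Without mouse 10 the median of the list was −0.09. With kit and clamp weight as terms 8 of the 23 were lower at that p, and with library weights 4 were, where 834 and 939 of all 13748 genes were.

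Glucose-producing and glucose-using genes gave no common direction. Of 15 gluconeogenic genes, 10 had a positive and 5 a negative difference, with a median of 0.03. The 1 with an unadjusted p under 0.05 was Fbp2, the muscle-type fructose bisphosphatase, at 0.589 to 0.685 scaled TPM in high-flux and 0.608 to 1.09 in low-flux livers, a level near the lower limit of the tested genes. At that p 1.28% of all genes were lower. Klf10, a glucose-induced transcription factor from the list of glucose sensing genes, was at 13.1, 11.9, 15.1 and 15.4 scaled TPM in high-flux mice 2, 3, 10 and 11 and 13.1, 10.3, 7.33 and 10.9 in low-flux mice 1, 4, 12 and 13. Only mouse 1 of the low group reached the high-flux range. Klf10 differed by 0.50 ± 0.14 (SE, unadjusted limma p = 0.00773, adjusted p = 1). Of 19 lipogenic genes 14 were negative (median −0.09), and of 18 insulin signalling genes 12 were positive (median 0.07), with 0 at an unadjusted p under 0.05 in both lists. The gluconeogenic median turned to −0.05 in RNeasy livers alone, the lipogenic one to 0.09 with kit and clamp weight as terms, and that of insulin signalling to −0.02 with library weights. In the cholesterol synthesis list, 15 of 22 were negative, with Pmvk, phosphomevalonate kinase, at −0.21 (unadjusted limma p = 0.0362). Pmvk was its 1 member lower at an unadjusted p under 0.05, against 1.28% of all genes. The median of that list, −0.08, turned to 0.10 with kit and clamp weight as terms, where 3 members were higher and 0 lower at an unadjusted p under 0.05, and to 0.03 with library weights, 0.04 without mouse 11 and 0.09 without mouse 12. With kit and clamp weight as terms, 820 of all 13748 genes were higher and 834 lower at that p.

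Genes of protein folding in the endoplasmic reticulum had the most members at an unadjusted p under 0.05. Of 22 genes of the unfolded protein and integrated stress response, 21 had a positive difference, with a median of 0.27, and 6 had an unadjusted p under 0.05 against 0.698% of all genes in that direction. None of the 22 had groups that did not overlap. The list also holds genes of the integrated stress response. Of these, Atf4 was the 1 negative member of the list, at −0.17, and Ddit3 differed by 0.04. Asns differed by 0.27 ± 0.88 (SE) and Trib3 by 0.50 ± 0.26 (SE). Many of the other genes encode chaperones and disulfide isomerases that load and fold secreted proteins. The cell is known to raise many of the listed genes through a stress element in the promoter. That element, searched as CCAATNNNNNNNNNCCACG on both strands, was present in 7 of the 20 members with a promoter in the RefSeq table (250 bases before to 50 after the start, GRCm38.p6), against 0.137% of all 27025 genes with a promoter there. The list was made of genes of this response, so the share with the element says nothing about the flux groups. The 6 members at an unadjusted p under 0.05 were Hyou1, Sdf2l1, Pdia4, Manf, Sel1l and Hsp90b1. Of these 6, Hsp90b1 alone is among the 7 with the element, and Hyou1 and Manf are the 2 members that the table does not hold. The sites are shown as a sequence shared within the list, with the fixed letters of the element in capitals, read in the direction of the element.
Hspa5 (chr2:34772025-34772043): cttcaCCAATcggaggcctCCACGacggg
Hsp90b1, site nearer to the start (chr10:86705533-86705551): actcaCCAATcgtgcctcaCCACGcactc
Hsp90b1, site farther from the start (chr10:86705638-86705656): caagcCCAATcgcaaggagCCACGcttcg
Calr (chr8:84847075-84847093): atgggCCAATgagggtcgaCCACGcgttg
Canx (chr11:50325800-50325818): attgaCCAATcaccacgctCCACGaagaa
Pdia6 (chr12:17266491-17266509): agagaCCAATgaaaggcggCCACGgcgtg
Dnajc3 (chr14:118937827-118937845): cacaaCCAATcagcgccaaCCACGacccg
Creld2 (chr15:88819520-88819538): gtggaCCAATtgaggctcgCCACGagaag
The coordinates span the 19 bases of the element, and 5 bases are printed to each side. The element lay on the plus strand of the genome for Hspa5, Calr, Pdia6, Dnajc3 and the site of Hsp90b1 nearer to the start, and on the minus strand for Canx, Creld2 and the other site of Hsp90b1. The edge of the element farther from the start lay 65 bases before the start in Hspa5, the chaperone BiP. In Calr, calreticulin, that edge lay 162 bases before the start. A match is a description of the letters and not a measured binding site.

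Levels of these genes followed single livers as much as the group. Hyou1, a large chaperone that works with Hspa5, was at 139, 146, 162 and 132 scaled TPM in high-flux mice 2, 3, 10 and 11. In low-flux mice 1, 4, 12 and 13 it was at 141, 86.1, 93.8 and 156. Mice 4 and 12 lay below all others, whereas the 2 AllPrep livers of the low group were among the high-flux values. The log2 difference with kit as a term was 0.45 ± 0.11 (SE, unadjusted limma p = 0.00396, adjusted p = 1). Hspa5, chosen for its site and not by its values, was at 619, 621, 693 and 644 scaled TPM in high-flux mice 2, 3, 10 and 11 and 854, 383, 467 and 577 in low-flux mice 1, 4, 12 and 13. The high-flux livers were close together, and mouse 1 and mouse 4 were the highest and the lowest of all 8.

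Sdf2l1, another partner of Hspa5, was at 33.4, 38.7, 49.2 and 28.2 scaled TPM in high-flux mice 2, 3, 10 and 11. It was at 41.1, 10.8, 27.5 and 19.5 in low-flux mice 1, 4, 12 and 13, with mouse 4 the lowest, and differed by 0.87 ± 0.32 (SE, unadjusted limma p = 0.0257, adjusted p = 1). Derl3, which helps to remove misfolded proteins and stood here in the list of plasma cell markers, did not overlap between the groups. Its level was 4.20, 5.01, 6.94 and 3.03 scaled TPM in high-flux mice 2, 3, 10 and 11 and 3.02, 1.06, 2.72 and 2.72 in low-flux mice 1, 4, 12 and 13. Mouse 11 and mouse 1 almost touched. Derl3 differed by 1.06 ± 0.24 (SE, or 2.08-fold, unadjusted limma p = 0.00199, adjusted p = 1). Its own list, of 12 tested B and plasma cell markers, had 7 positive and 5 negative differences, with a median of 0.04. Derl3 was the 1 member there whose groups did not overlap, against 0.247% of all genes in that direction. The median over the 22 genes ranged from 0.20 to 0.38 with each liver left out, and was 0.25 in RNeasy livers alone. Without the kit term the median was 0.16 and 0 of the 22 were at an unadjusted p under 0.05. That number was 1 with the spread taken from all 18 libraries, 2 higher and 1 lower with flux as a number, and 17 higher and 1 lower with library weights. It was 1 without mouse 3 or without mouse 4, 2 without mouse 13, 3 without mouse 2, 11 without mouse 1, and 8 higher and 1 lower without mouse 12. Over all 13748 genes, 600 were higher at that p with library weights, 257 without mouse 1 and 254 without mouse 12.

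Immediate early genes, which are switched on within minutes by stress, growth factors or tissue handling, had negative differences in the fit with kit as a term, but the levels of the 2 groups overlapped. All 17 tested members had a negative difference there, with a median of −0.44, and 3 had an unadjusted p under 0.05 against 1.28% of all genes in that direction. Jun, a subunit of the AP-1 factor, was at 67.9, 44.7, 36.8 and 87.2 scaled TPM in high-flux mice 2, 3, 10 and 11 and 80.6, 106, 88.0 and 113 in low-flux mice 1, 4, 12 and 13. Only mouse 11 of the high group reached the low-flux range. Jun differed by −0.86 ± 0.25 (SE, unadjusted limma p = 0.00783, adjusted p = 1), and Atf3, a stress-induced repressor, by −0.98 ± 0.39 (p = 0.0348, adjusted p = 1). Fos, the partner of Jun, was looked at after its values had been seen. It stood at 24.7, 42.9, 14.8 and 24.1 scaled TPM in high-flux mice 2, 3, 10 and 11 and 233, 160, 20.0 and 18.7 in low-flux mice 1, 4, 12 and 13, so that mice 1 and 4 alone stood apart. The median over the 17 genes was −0.20 without mouse 10, where 0 were at an unadjusted p under 0.05, and −0.96 without mouse 12, where 12 were. The number was 1 without mouse 1 and 1 without mouse 4, 9 with kit and clamp weight as terms, 14 with library weights and 0 in RNeasy livers alone. Among all 13748 genes, 317 were lower at that p without mouse 12, 834 with kit and clamp weight as terms and 939 with library weights. The plain group means of Nr4a2, a nuclear receptor of this list named after its values had been seen, were alike, at 4.29 scaled TPM in both groups. In the median over the list, low-flux mice 12 and 13 (−0.26 and −0.60) lay below high-flux mice 2, 3 and 11 (−0.17, 0.27 and −0.004).

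Among hormone-responsive genes, 9 of 11 thyroid hormone targets had a negative difference, with a median of −0.28. Hr, a corepressor that thyroid hormone induces, was at 1.62, 1.16, 1.41 and 1.97 scaled TPM in high-flux mice 2, 3, 10 and 11. It was at 3.17, 2.19, 2.59 and 2.20 in low-flux mice 1, 4, 12 and 13, above all 4 high-flux livers, and differed by −0.57 ± 0.16 (SE, unadjusted limma p = 0.00791, adjusted p = 1). Dio1, the deiodinase that converts thyroxine into its active form, was at 98.4, 98.1, 154 and 119 scaled TPM in high-flux mice 2, 3, 10 and 11 and 194, 116, 185 and 187 in low-flux mice 1, 4, 12 and 13. Without mouse 4, the 3 other low-flux livers lay above all high-flux livers. Dio1 differed by −0.42 ± 0.15 (SE, unadjusted limma p = 0.0241, adjusted p = 1). The number of thyroid hormone targets lower at an unadjusted p under 0.05 was 2, against 1.28% of all genes, 7 with library weights, 1 without mouse 2 or mouse 10, and 0 with the spread of all 18 libraries. With library weights 939 of all 13748 genes were lower at that p. The 13 glucocorticoid targets had 8 positive and 5 negative differences and a median of 0.11, and the 19 tested clock genes 10 and 9, with a median of 0.01. In RNeasy livers alone those medians turned to −0.02 and −0.07.

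Among all tested genes at a mean of 5 scaled TPM or more whose groups did not overlap, the 10 lowest unadjusted p-values of genes with a regular symbol belonged to genes that were lower in high-flux livers. Nat8f5, a member of the N-acetyltransferase 8 family, had the smallest p of them. It was measured at 13.9, 15.3, 13.1 and 11.0 scaled TPM in high-flux mice 2, 3, 10 and 11 and 21.7, 20.1, 21.6 and 25.4 in low-flux mice 1, 4, 12 and 13. The gap between the groups was wider than the spread within the high group. Nat8f5 differed by −0.70 ± 0.12 (SE, 95% interval −0.98 to −0.42), with an unadjusted limma p of 0.000368 and an adjusted p of 1. Separate groups were a condition for naming it. Its family member Nat8 was lower as well, at 13.2 ± 1.82 against 18.7 ± 2.61 scaled TPM (SD, n = 4 each). Nat8 differed by −0.49 ± 0.14 (SE, unadjusted limma p = 0.00752). Members of this family are near-identical in parts, and how reads shared between them were counted is not given in the sources used here.

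Spon2, a secreted matrix protein, was at 13.6, 9.65, 10.7 and 10.9 scaled TPM in high-flux mice 2, 3, 10 and 11 and 18.8, 17.8, 15.1 and 18.0 in low-flux mice 1, 4, 12 and 13. Its groups were separate, which the choice required, with a difference of −0.61 ± 0.13 (SE, unadjusted limma p = 0.00123). Mgll, monoacylglycerol lipase, which releases the last fatty acid from stored fat, was at 134, 124, 118 and 138 scaled TPM in high-flux mice 2, 3, 10 and 11. In low-flux mice 1, 4, 12 and 13 it was at 162, 153, 162 and 183, all above the high group, with a difference of −0.36 ± 0.09 (SE, unadjusted limma p = 0.00481).

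Cdkn1a, the cell cycle inhibitor p21, was at 7.17, 5.70, 5.72 and 9.0 scaled TPM in high-flux mice 2, 3, 10 and 11 and 10.3, 9.83, 11.3 and 15.2 in low-flux mice 1, 4, 12 and 13. It was the cell cycle gene with the largest difference, at −0.72 ± 0.19 (SE, unadjusted limma p = 0.00507), and Rrm2, which supplies nucleotides for DNA synthesis, differed by −0.45 ± 0.13 (p = 0.00793). Both had groups that did not overlap, 2 of 22 cell cycle genes against 0.749% of all genes in that direction. Differences were negative for 20 of the 22, against 54.3% of all genes, with a median of −0.11. The other genes named by the rule were Lmo4, a LIM-domain cofactor of transcription (−0.36), Phospho1, a phosphatase of phosphocholine (−0.64), Pam, which amidates peptide hormones (−0.37), and Mir3061 (−0.44), a microRNA gene whose reads here come from total RNA and do not measure the mature microRNA. All of these had an adjusted limma p of 1.

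In the other direction, Bcl6 differed most. Bcl6 is a zinc-finger repressor of transcription that is active in male mouse liver. It was at 9.89, 25.9, 11.9 and 15.2 scaled TPM in high-flux mice 2, 3, 10 and 11 and 9.32, 8.38, 4.05 and 3.57 in low-flux mice 1, 4, 12 and 13. The groups were separate, but mouse 2 and mouse 1 nearly met. Bcl6 differed by 1.22 ± 0.39 (SE, or 2.33-fold, 95% interval 0.33 to 2.11, unadjusted limma p = 0.0133, adjusted p = 1). Slc7a2, a transporter of arginine and other cationic amino acids, was at 317, 323, 367 and 319 scaled TPM in high-flux mice 2, 3, 10 and 11. It was at 218, 298, 255 and 217 in low-flux mice 1, 4, 12 and 13, with mouse 4 nearest to the high group, and differed by 0.41 ± 0.12 (SE, unadjusted limma p = 0.00953). Tbc1d8 differed by 0.42 ± 0.13 (p = 0.0123) and Sorbs3, the adaptor vinexin, by 0.32 ± 0.11 (p = 0.0166). The remaining 6 were Tmtc2, Slc35e2, Snx33, Ap1g2, Cyb561a3 and Marf1, with differences of 0.17 to 0.25. Snx33, Ap1g2, Cyb561a3 and Marf1 had unadjusted p from 0.0621 to 0.0657 although their groups did not overlap.

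**Figure D4:**
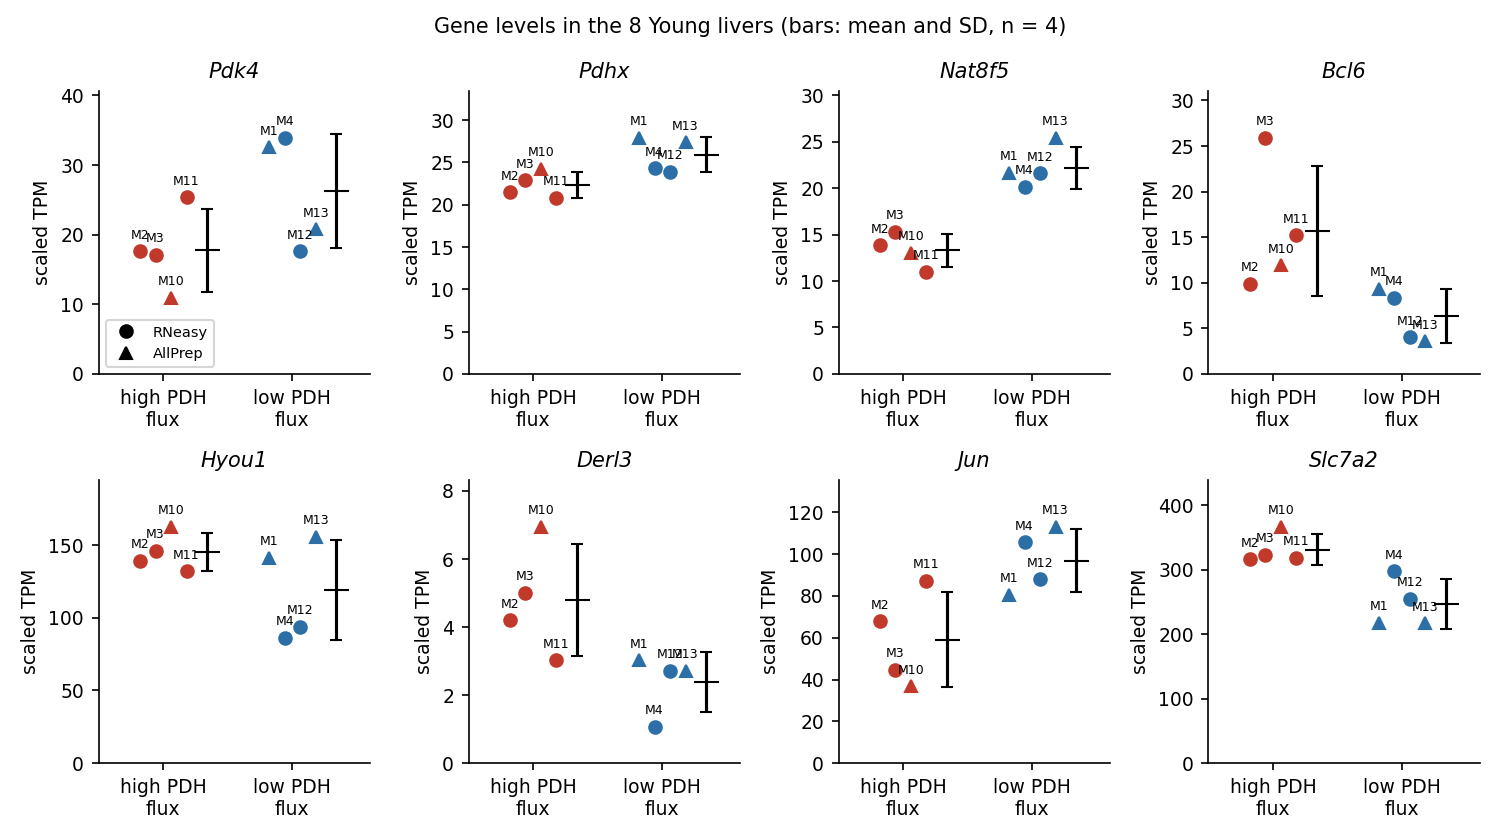
Scaled TPM of 8 genes in each of the 8 Young livers with the group mean and SD (n = 4); triangles mark AllPrep and circles RNeasy livers, and each axis starts at 0. Nat8f5, Bcl6, Derl3 and Slc7a2 do not overlap between the groups, whereas Pdk4, Pdhx, Hyou1 and Jun do, and none passed the test over all genes.

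Markers of other liver cells were compared in the same way. In whole liver, fewer cells of a type and less RNA per cell cannot be told apart. All 13 tested markers of stellate cells and fibroblasts had a negative difference, against 54.3% of all tested genes, with a median of −0.30 and 2 at an unadjusted p under 0.05, against 1.28% of all genes in that direction. Their summed level was 352, 359, 380 and 321 scaled TPM in high-flux mice 2, 3, 10 and 11 and 554, 474, 308 and 526 in low-flux mice 1, 4, 12 and 13. In that sum mouse 12 was the lowest of all 8 and the other 3 low-flux livers the highest. Single members did not all follow the sum. Dcn did, at 202 scaled TPM in mouse 1 and 103 in mouse 12. The collagens Col1a1 and Col3a1 went the other way, at 0.754 and 6.39 in mouse 1 and 9.30 and 21.1 in mouse 12. Lum, the matrix protein lumican, did not overlap, at 4.62 to 7.24 against 7.50 to 9.14 scaled TPM (−0.42 ± 0.11 SE, unadjusted limma p = 0.00530), and Pdgfrb, a receptor on stellate cells and pericytes, differed by −0.39 ± 0.14 (p = 0.0223). Without mouse 12 the median was −0.38 and 7 of the 13 had an unadjusted p under 0.05, and the number was 1 without mouse 2, 3, 4 or 10, 8 with library weights and 5 with kit and clamp weight as terms. Of all 13748 genes, 317 were lower at that p without mouse 12, 939 with library weights and 834 with kit and clamp weight. Lum is itself 1 of the 13 markers. Lum and Spon2 also lay above every high-flux liver in mouse 12, which follows from their choice as genes whose groups did not overlap.

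Erythroid markers had 8 of 9 positive differences and a median of 0.68, where 54.3% of all tested genes had a negative difference. Hba-a2, a hemoglobin chain whose near-identical copy is listed beside it, was at 169, 237, 279 and 94.0 scaled TPM in high-flux mice 2, 3, 10 and 11 and 151, 67.4, 148 and 93.1 in low-flux mice 1, 4, 12 and 13. The groups overlapped, with mice 4, 11 and 13 low. Hba-a2 differed by 0.85 ± 0.36 (SE, unadjusted limma p = 0.0459, adjusted p = 1). It was the 1 member higher at an unadjusted p under 0.05, against 0.698% of all genes in that direction. The number of such members was 7 with library weights and 0 without the kit term. No erythroid marker was at an unadjusted p under 0.05 without mouse 2, 3, 4, 10 or 13, whereas 3 were without mouse 1 and 6 were without mouse 11 or mouse 12. Among all 13748 genes, 600 were higher at that p with library weights, 257 without mouse 1, 155 without mouse 11 and 254 without mouse 12. Of 20 macrophage markers 19 were positive (median 0.07), of 18 endothelial markers 10 were positive (0.00316), and of 13 T and NK cell markers 10 were negative (−0.15), all with 0 at an unadjusted p under 0.05. The macrophage median turned to −0.07 without the kit term, −0.05 in RNeasy livers alone, −0.08 without mouse 3 and −0.05 without mouse 10. The T and NK cell median turned to 0.16 with library weights, and the endothelial one to −0.09 without the kit term. The 4 tested neutrophil markers were positive, with a summed level of 7.74 to 30.8 and 4.74 to 18.4 scaled TPM in high-flux and low-flux livers.

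Acute phase proteins, which hepatocytes secrete in inflammation, divided the livers across the flux groups. Of 20 genes 19 had a positive difference, with a median of 0.30 and 0 at an unadjusted p under 0.05. Their summed level was 20330, 19840, 99680 and 32490 scaled TPM in high-flux mice 2, 3, 10 and 11 and 26300, 18890, 58970 and 31010 in low-flux mice 1, 4, 12 and 13. Mouse 10 of the high group and mouse 12 of the low group stood apart. Saa1, serum amyloid A, was looked at after its values had been seen and was at 37.0, 33.8, 10240 and 1224 scaled TPM in high-flux mice 2, 3, 10 and 11 and 36.7, 36.9, 5843 and 173 in low-flux mice 1, 4, 12 and 13. All 4 livers numbered 10 to 13 were above all 4 numbered 1 to 4, so each flux group held livers of both kinds. The labels name no batch for these numbers. With a term for the 2 sets of numbers, 2 genes were called between the sets and 1850 had an unadjusted limma p under 0.05, and 0 genes were called between the flux groups, with 129 higher and 250 lower in high-flux livers at an unadjusted p under 0.05. Without mouse 10 the median of the 20 genes was −0.46, and without mouse 12 it was 1.02, with 15 at an unadjusted p under 0.05. In the fit without mouse 12, 254 of all 13748 genes were higher at that p.

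**Figure D5:**
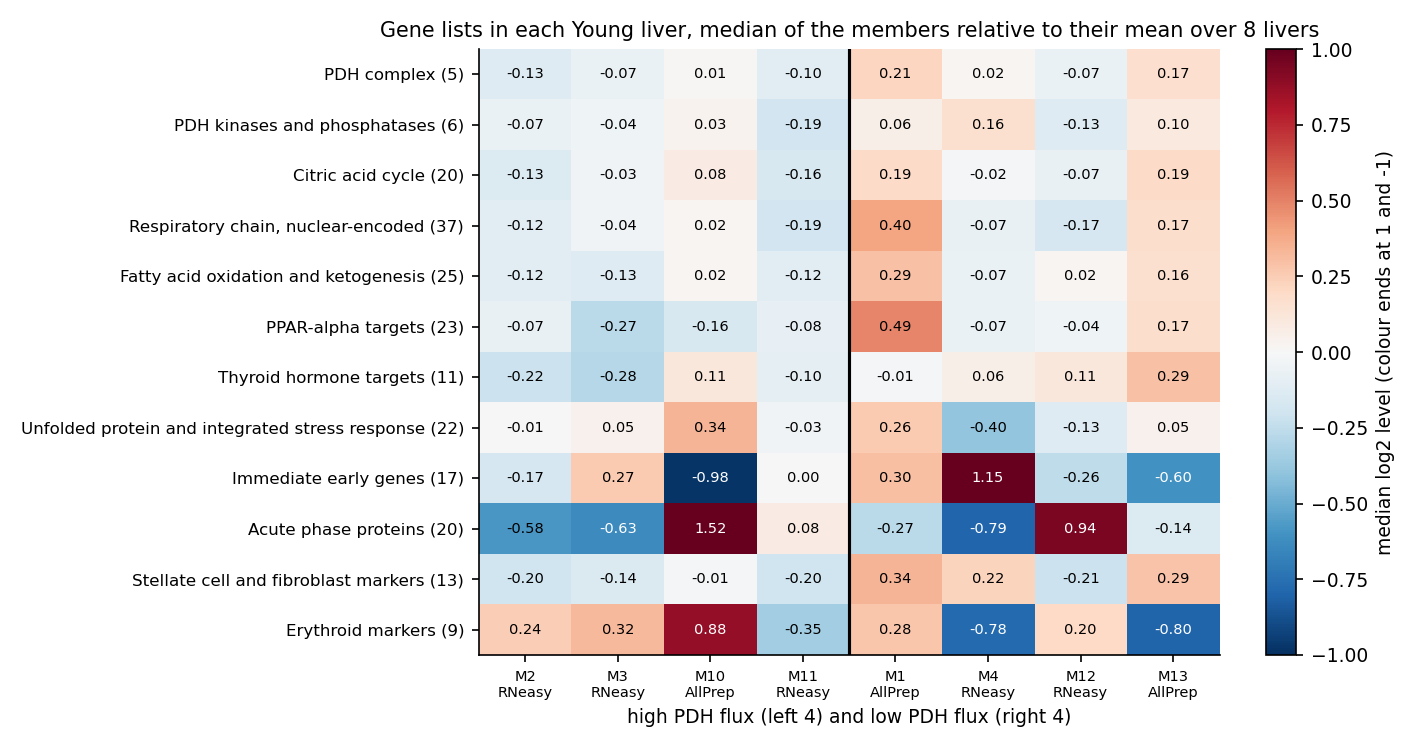
Median log2 level of the members of 12 gene lists (number of tested members in brackets) in each of the 8 Young livers, relative to the mean of each member over the 8 livers; red is above and blue below that mean, and colours end at 1 and −1. Immediate early genes are highest in mouse 4 and lowest in mouse 10, and acute phase proteins are highest in mice 10 and 12, 1 from each flux group.

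Old livers gave a view of the same fluxes in mice that had no part in the grouping. Their labelled PDH flux was 0.167 to 0.351 with a median of 0.258, below every high-flux Young liver. In a limma fit over the 10 Old livers with kit as a term, 0 of 13748 genes had a slope on PDH flux at an adjusted p under 0.05. At an unadjusted p under 0.05, 76 slopes were positive (0.553%) and 107 negative (0.778%), and 60.8% of all slopes were negative. The slope also did not differ between ages for any gene after adjustment, with 165 genes at an unadjusted p under 0.05 and a smallest adjusted limma p of 0.999.

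Of the 10 named genes that were lower in high-flux Young livers, 8 had a negative slope in Old livers, and of the 10 that were higher, 2 had a positive slope. None of the 20 had an unadjusted p under 0.05 in Old livers. Nat8f5 had a slope of −0.19 ± 0.03 per 0.1 flux units in Young and −0.16 ± 0.38 in Old livers (SE, unadjusted limma p = 0.686 in Old). Pdk4 had −0.18 ± 0.07 in Young and −0.50 ± 0.39 in Old livers (SE, p = 0.227 in Old), over Old levels of 14.8 to 125 scaled TPM. Bcl6 had 0.28 ± 0.12 in Young and −0.05 ± 0.30 in Old livers (SE, p = 0.881 in Old). The Old slopes of all 3 had errors wider than the Young slopes, and their differences between ages had unadjusted limma p of 0.953, 0.384 and 0.254. Among genes of pyruvate entry and PDH control, Ldha had an Old slope of −0.25 ± 0.11 (SE, unadjusted limma p = 0.0394, adjusted p = 1), against −0.02 ± 0.04 in Young livers.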

How the data were processed

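Liver RNA was measured by paired-end sequencing of ribosome-depleted libraries, 8 of them Young. The authors deposited TPM, read numbers per gene length that sum to 1000000 in a library, for 18946 genes. STAR 2.7.9a, Subread and featureCounts, and the builds GRCm39 and mm10 without roles, are named per the submitters' processing notes; for gene lengths, annotation and strand setting the sources used here give nothing. Whole reads were recovered from the TPM ratios for 18946 of 18946 genes (largest distance from a whole number 2.0e-08, tolerance 1e-06). No 2 of the 28 pairs of Young libraries agreed within sampling noise (lowest chi-square per degree of freedom 38.5).

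TPM was brought to a common composition with a trimmed mean of the log ratios (trimming 30% of the ratios and 5% of the mean levels on both sides; factors 0.854 to 0.89 for AllPrep and 1.03 to 1.14 for RNeasy livers). The 13748 genes that reached 0.5 TPM in 4 or more of the 8 Young livers were compared by limma 3.58.1 (R 4.3.3) using log2(scaled TPM + 0.5), with a variance trend, flux group and kit; a fold change on this scale understates that of low genes. The design had assumed that the table might hold counts; as its unit is TPM, a count model was not the main test. Benjamini-Hochberg adjusted p-values under 0.05 were calls. The fit was checked on simulated data. Traits came from the labels. Python 3.11.15, numpy 2.4.6, scipy 1.17.1, pandas 2.3.3 and matplotlib 3.10.9 were used. Old mice entered the slope fits alone, and the spread taken from all 18.

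The groups, lists and tests were chosen with earlier results of these data known. Named genes were, in each direction, up to 10 with the smallest unadjusted p among genes with a mean of at least 5 scaled TPM, groups that did not overlap and a regular symbol; all genes of the PDH complex, its kinases and phosphatases, with Mpc1, Mpc2, Pcx and Ldha; and up to 2 members of each other list with the smallest p if under 0.05. Slopes on flux in Old livers and their difference from Young were fitted with the same steps over the Old and all 18 livers. Promoters came from RefSeq (GRCm38.p6), and the authors' gene coordinates were not used. Alternatives covered the kit term, RNeasy livers alone, scaling, filter, pseudocount, spread, flux as a number, weights, limma-voom, body weight and each mouse left out. A term for the set of library numbers (1 to 4 or 10 to 13), and list medians under each setting, were added after seeing the data.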

Additional observations from a re-analysis of the deposited data

Results flagged for a closer look

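Of 138 groups of 4 Young livers or mice, 9 (6.52%) held a value whose gap to the nearest other was more than 0.829 of the whole range, where chance gives about 1 in 20. Mouse 4 was the lowest low-flux liver for Ldha (373 scaled TPM against 528 to 538), Dio1 (116 against 185 to 194) and Derl3 (1.06 against 2.72 to 3.02). Mouse 1 was the highest low-flux liver for Mpc2 (468 against 256 to 289) and Lmo4 (13.65 against 11.47 to 11.55). Mouse 13 was the lowest low-flux liver for Pdp1 (0.563 against 0.908 to 0.938). Mouse 10, the only AllPrep liver of the high-flux group, was the highest there for Slc7a2 (367 against 317 to 323) and Dlat (28.2 against 23.9 to 24.6). Mouse 2 was the highest high-flux liver for Rrm2 (3.87 against 3.15 to 3.26). No trait of the mice had such a value. No named gene had a slope on flux that differed between Young and Old livers after adjustment.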

How the results depend on the processing

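The count of called genes was 0 in both directions under every alternative but library weights, where 1 gene was higher. Leaving out each mouse in turn kept it between 0 and 0, also for the 18 traits. The slopes in Old livers and their difference between ages had 0 calls under each alternative, and without Old replicate 14 the genes at an unadjusted p under 0.05 rose from 183 to 358 and from 165 to 261. Of 50 named genes tested, 42 kept their sign under all 14 settings and with each of 8 mice left out. The sign of 8 turned. For Pdha1 log2 difference was 0.0128 in RNeasy livers alone, and −0.174 to 0.0119 with each mouse left out. For Dld it was 0.00334 in RNeasy livers alone and 0.00262 with library weights, and −0.0733 to 0.00244 with each left out. For Pdk2 it was −0.00387 without the kit term and −0.0112 to 0.168. For Pdp2 it was 0.00667 with kit and clamp weight as terms. For Pdpr it was 0.0205 with the spread of all 18 libraries, 0.00641 with PDH flux as a number, 0.0273 with kit and clamp weight, and −0.0871 to 0.0390. For Mpc2 it was 0.0872 in RNeasy livers alone and −0.190 to 0.0863. For Pcx it was 0.0175 with flux as a number, 0.163 with kit and clamp weight, and −0.229 to 0.0759, and for Ldha −0.207 to 0.110. The cause was not tested.

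With each mouse left out, 11 of 18 trait differences turned sign: citrate synthase flux −0.0250 to 0.298, glycogen −6.13 to 3.00, basal glucose production −0.515 to 1.49, basal glycerol −9.54 to 0.658, clamp glycerol −6.66 to 0.242, glycerol suppression −3.16 to 7.98, fat percent −0.320 to 4.26, RER −0.0360 to 0.0283, oxygen use −133.9 to 17.8, feeding −0.899 to 0.323 and activity −7.07 to 289.6. No replicate number occurs in both groups. No paired analysis was possible because the mice of the 2 groups carry different numbers. Whether more livers or more reads would narrow the intervals was not tested.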
